A study of Mus musculus with 4 samples.

Results

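The outer margin of the tumour is the strip of tumour spots that lies against surrounding brain tissue in sections of mouse brain profiled on barcoded spot arrays. A spot over tissue with at least 2000 UMIs (counted transcript molecules) was called tumour when 21 proliferation genes, among them Mki67, Top2a, Cdk1 and Pcna, summed to at least 1500 CPM (counts scaled to a fixed total per spot or per sum of spots). A tumour spot was placed in the margin when at least 2 of its 6 neighbours on the hexagonal array were tumour and at least 2 were tissue that was not tumour. The members were thus chosen by measured counts of the proliferation genes, and those genes are only described. This gave 192 margin spots of 3389 tumour spots and of 13046 spots over tissue in all. They were compared with the tumour interior, which is the 2600 tumour spots with 6 tumour neighbours. They were also compared with the ring, which is the 312 spots of other tissue with at least 500 UMIs that touch a margin spot.

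All samples come from mice that had a tumour inoculated into the brain and then resected, and the sections were fixed in formalin and embedded in paraffin. The labels place both groups at day 11 and call them Vehicle and TREAT, and the study names its groups as treated with a hydrogel or not. The hydrogel, the vehicle, the tumour line, the mouse strain and the age of the animals were not stated in the labels used here. The 4 capture areas are named Vehicle 1+4, Vehicle 2+3, TREAT 1+4 and TREAT 2+3, and values below for the 4 areas follow that order. Each area carried 2 large pieces of tissue, 8 in all, while the sources state 4 animals and do not tie a piece to an animal. P-values therefore take areas as replicates, 4 in comparisons of zones and 2 per group in those of TREAT, and not animals of known number. The tests share information on spread across genes, and each SE is derived from the test statistic. An SE can thus be smaller than a gene's own spread between areas. Gzmg, for example, had log2 ratios of margin to interior of 0.31, -2.47, 2.22 and -0.09 with an SE of 0.24.

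A growing glioma meets brain tissue at an edge where tumour cells sit among neurons, myelinated axons and glia. Astrocytes near such a lesion raise Gfap, resident microglia and incoming macrophages gather, and lymphocytes that leave vessels are often found along the border. The extracellular matrix there mixes the perineuronal proteins of normal brain with fibronectin, tenascin-C and collagens laid down around lesions. A spot can hold several cells of different types, so a level in a spot or in a sum of spots is a mixture. Fewer cells of a type and less RNA per cell cannot be told apart in these sums.

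The margin was a smaller part of the tumour in the Vehicle areas than in the TREAT areas. There were 34, 71, 35 and 52 margin spots in the 4 areas, against 789, 1163, 179 and 469 interior spots and 60, 119, 55 and 78 ring spots. As a share of all tumour spots the margin made up 3.37% (Wilson 95% interval 2.42 to 4.67), 4.83% (3.84 to 6.04), 12.9% (9.40 to 17.4) and 8.16% (6.28 to 10.5), and these intervals cover counting error only. Both TREAT areas lay above both Vehicle areas. The mean share was 4.10% ± 1.03 (SD, n = 2) in Vehicle and 10.5% ± 3.33 (SD, n = 2) in TREAT, and a two-sided exact permutation test gave p = 0.333, the smallest that 2 areas against 2 allow. The tumours themselves held 1009, 1471, 272 and 637 spots, with both TREAT numbers below both Vehicle numbers. With patches of at least 50 tumour spots only, the shares were 3.38%, 3.40%, 7.96% and 8.21%.

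**Figure D1:**
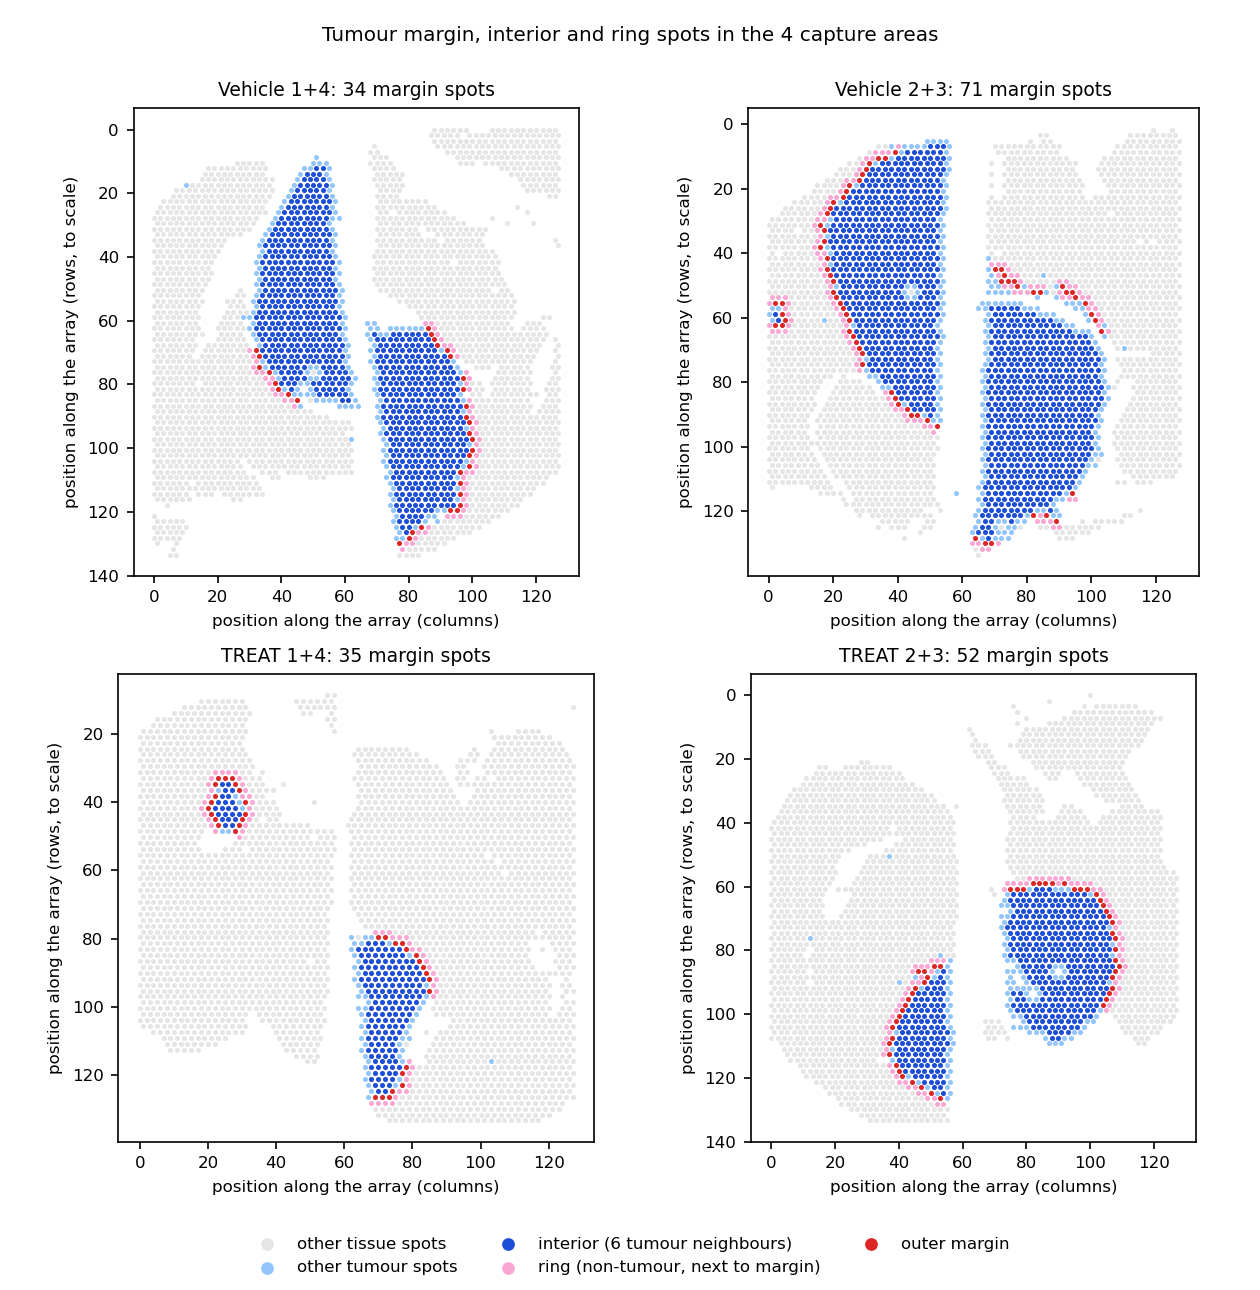
Map of the 4 capture areas, with every spot over tissue drawn at its array position (columns and rows of the array as axes) and coloured as interior, outer margin, ring, other tumour or other tissue. The 34, 71, 35 and 52 margin spots form thin broken lines where tumour meets tissue, and the sides of the tumours that end at a gap or at the edge of the tissue hold none or few.

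The line was thin and irregular, and a few spots just across it lay near the threshold while the median ring spot lay well below. Of the margin spots, 15, 34, 20 and 30 had 2 neighbours outside the tumour, 17, 27, 13 and 18 had 3, and 2, 10, 2 and 4 had 4. A further 36, 61, 22 and 23 tumour spots had only 1 such neighbour and were left out of both margin and interior, and 934, 1326, 214 and 556 had none. Within areas the margin was split between the left and right pieces as 8 and 26, 47 and 24, 17 and 18, and 24 and 28 spots. Tumour spots at the edge of the tissue numbered 165, 199, 46 and 94, but only 4, 10, 1 and 1 of them were margin spots. In Vehicle 2+3, 48 of 71 margin spots belonged to tumour patches of at least 50 spots, in TREAT 1+4 18 of 35, and in the other two areas all of them. The proliferation sum chose the spots, so its values are a description only. The third lowest margin spot had 1670, 1547, 1631 and 1543 CPM, and the third highest ring spot of at least 2000 UMIs had 1467, 1459, 1392 and 1374 CPM. The median was 2241, 2077, 2156 and 2193 CPM in the margin, 3009, 3001, 3098 and 2765 CPM in the interior and 612, 974, 652 and 855 CPM in the ring.

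Depth differed between the zones and between the groups. The median margin spot held 11257.5, 14622, 30183 and 24078.5 UMIs, the interior spot 21635, 23214, 33494 and 36935, and the ring spot 6593.5, 7033, 18828 and 13248. In every area the margin lay between the ring and the interior, and both TREAT areas were deeper than both Vehicle areas. Summed over spots, the margin held 424810, 1108899, 1096093 and 1280812 UMIs, so Vehicle 1+4 is the least precise. All 4 areas use the same 4992 array barcodes, which mark positions and not shared cells. Levels of single genes below are CPM of these sums after TMM scaling, which sets the libraries to a common base. Levels of gene lists are summed CPM of the plain library totals. The scaling moves the interior of the Vehicle areas most, with TMM factors of 0.709 and 0.768 there against 0.975 and 1.02 in the TREAT interiors and 1.01 to 1.09 in the margins.

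Against the interior, the margin had higher levels of genes of normal brain cells and lower levels of genes of growth and stress. By the rule margin spots touch tissue low in proliferation genes and interior spots do not. Part of the difference in growth and brain cell genes therefore follows from the choice of spots. Raw counts were summed per area and zone and fitted with edgeR's quasi-likelihood F-test, with the area as a block and Benjamini-Hochberg adjustment at 0.05. Of 13776 genes, 2442 were higher in the margin (17.7%) and 4411 were lower (32.0%). The median gene lay at -0.25 on the log2 scale under this scaling. With library totals it lay at 0.03, and 3471 genes were higher and 2408 lower, so the share of calls that were upward was 35.6% with TMM and 59% with library totals. DESeq2 gave 2737 higher and 2597 lower. Without Vehicle 2+3 the calls dropped from 6853 to 4346, and with each spot thinned to 2000 UMIs to 2491.

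The largest surpluses were those of oligodendrocyte and astrocyte genes. Cldn11, on chromosome 3 at 31149920 to 31164326 (mm10), encodes the tight junction protein of myelin. It stood at 250.8, 275, 417 and 372 CPM in the margin, at 5.22, 6.83, 18.0 and 8.76 CPM in the interior and at 563, 546, 1198 and 854 CPM in the ring. Every margin value exceeded every interior value and lay below every ring value, at 34.8% to 50.4% of the ring level of its own area. The fitted difference from the interior was 5.20 ± 0.19 (SE) on the log2 scale, with an adjusted p of 6.75e-61. Mag, the glycoprotein that faces the axon, reached 126.5, 184.5, 221 and 237 CPM in the margin against 5.30, 6.92, 10.3 and 5.88 in the interior (4.79 ± 0.19), and Mobp rose by 4.82 ± 0.19. Nfasc, a cell adhesion molecule of axons and of the paranodal glia that contact them, rose by 5.07 ± 0.19. In each of these genes the margin was above the interior in all 4 areas and below the ring in all 4.

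The astrocyte genes with the smallest p were also far above the interior. The reactive astrocyte list as a whole was not, with a median of 0.12 on the log2 scale against -0.25 over all genes tested. Against the ring its median was 0.04, and that of all genes 0.05. Gfap, the intermediate filament of reactive astrocytes, stood at 1123, 914, 1153 and 1045 CPM in the margin, at 34.1, 31.2, 92.1 and 28.8 CPM in the interior and at 3039, 2278, 2651 and 2926 CPM in the ring. The margin mean was 1059 ± 107 CPM (SD, n = 4), 38.9% of the ring by the means. The fitted fold over the interior was 25.8 (4.69 ± 0.20, adjusted p = 7.5e-54), and the 3 zones did not overlap. Among the 12 genes with the smallest p were further astrocyte genes: Mlc1, a membrane protein of their end-feet (4.92 ± 0.20), Ntrk2, the receptor of brain-derived neurotrophic factor (4.44 ± 0.18), the small membrane protein Fxyd1 (4.32 ± 0.18), and the glutamate transporter Slc1a3 (4.37 ± 0.19). Others were Igfbp2, a binding protein of insulin-like growth factors (5.12 ± 0.20), and Scg3, a granin of secretory granules (4.43 ± 0.19). All 12 were above the interior in all 4 areas.

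By list, the surplus covered nearly every member of the normal brain cell types. Of 13 myelin genes tested 12 rose and 1 fell, with a median of 4.08 on the log2 scale, against -0.25 over all genes tested. The one that fell was Aspa, an enzyme of acetylaspartate breakdown in oligodendrocytes, which was also below the ring and did not pass against the interior with library totals or DESeq2. Of 14 homeostatic astrocyte genes 13 rose (median 2.88), led by Slc1a3, the water channel Aqp4 (4.56 ± 0.20), the glutamate transporter Slc1a2 (3.84 ± 0.18) and the pump subunit Atp1b2 (3.40 ± 0.18), while Gja1 passed only with library totals and DESeq2. Of 11 oligodendrocyte precursor genes 9 rose (median 3.10), led by the transcription factor Olig1 (3.85 ± 0.19), and Sox10 fell. Of 15 neuronal genes 14 rose (median 2.34), with the growth-cone protein Gap43 (3.82 ± 0.19), the tubulin regulator Stmn2 (3.74 ± 0.19) and the vesicle fusion protein Snap25 (2.96 ± 0.18) in front, and Uchl1 fell. Of 16 synapse genes 14 rose (median 2.5), led by the vesicle proteins Sv2a (4.31 ± 0.25) and Syp (3.24 ± 0.20) and by neurogranin, Nrgn (3.31 ± 0.21), while Stx1a fell with TMM scaling only. All 8 genes of the perineuronal and neural matrix rose (median 2.90), with tenascin-R, Tnr, at 4.23 ± 0.23 and brevican, Bcan, at 3.02 ± 0.18.

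These surpluses were gone within a few spots of the border. Summed over 14 homeostatic astrocyte genes, the margin held 2442, 2625, 2278 and 2129 CPM of the library totals, tumour spots 2 to 3 steps further in held 486, 564, 574 and 501 CPM, and spots 7 or more steps in held 364, 376, 351 and 410 CPM. The step from the margin to the next band was thus far larger than any step deeper in, in each area. Myelin genes summed to 4017, 4853, 7246 and 8945 CPM in the margin and to 1075, 1506, 1288 and 1396 CPM 2 to 3 steps in. Neuronal genes summed to 1573, 1776, 1175 and 1602 CPM in the margin and to 730, 720, 1008 and 970 CPM 2 to 3 steps in, so the neuronal step was smallest in TREAT 1+4. With tumour spots 2 to 3 steps in used in place of the whole interior, 5787 genes were called, 2417 of them higher and 3370 lower. That alternative was added after seeing the data.

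**Figure D2:**
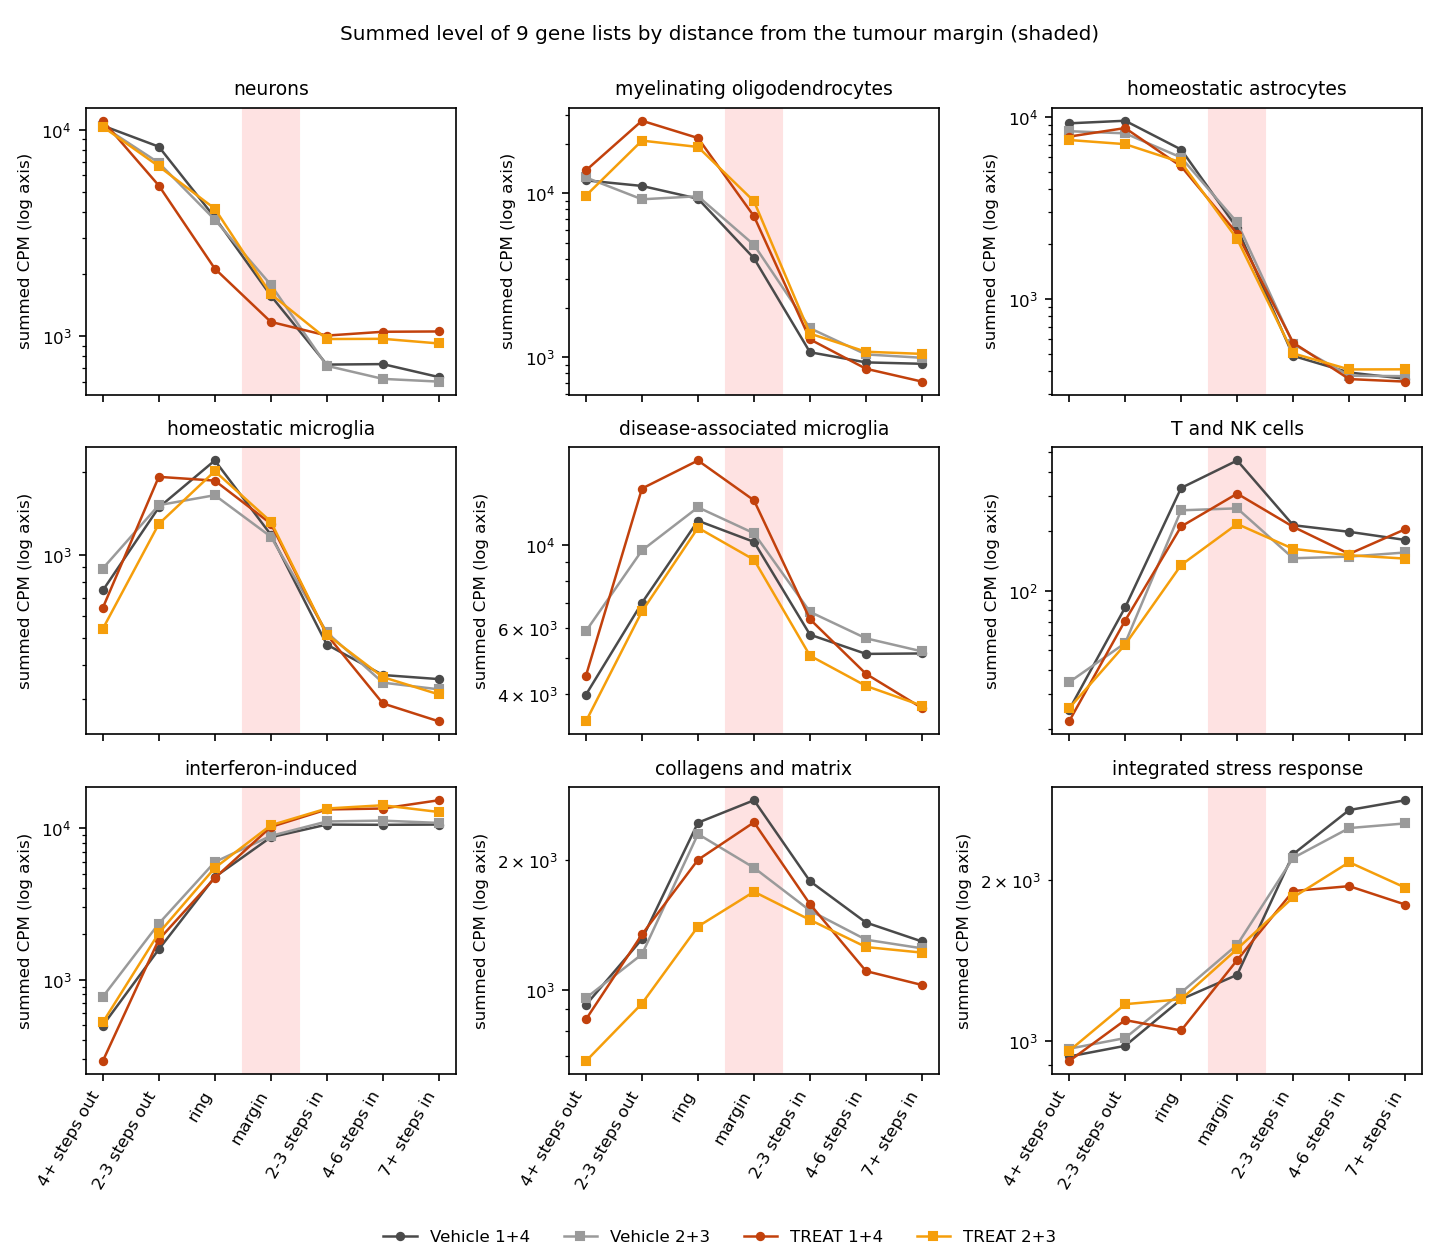
Summed CPM of 9 gene lists (log axis) in bands of spots from 4 or more steps outside the tumour, through ring and margin (shaded), to 7 or more steps inside, with 1 line per capture area. Neuronal, myelin and homeostatic astrocyte lists fall steeply between ring and 2 to 3 steps in, and the T and NK cell list is highest at the margin in all 4 areas, at 455, 261, 310 and 218 CPM. That list includes Cd3e and Cd3g, picked out below as highest at the margin, so its peak is a description only.

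How far the margin stood toward the ring differed between lists. On the scale where the interior is 0% and the ring 100%, after TMM scaling, the homeostatic astrocyte list stood at 32.2%, 41.2%, 37.0% and 32.2% and the myelin list at 34.4%, 45.0%, 29.9% and 42.8%. The neuronal list stood at 20.5%, 36.3%, 3.33% and 18.8%, and disease-associated microglia at 69.7%, 74.8%, 67.6% and 69.5%. The disease-associated microglia list was above the astrocyte and neuronal lists in every area. This does not cover microglia as a cell type. Against the ring the homeostatic microglia list had a median of -0.63 on the log2 scale and the disease-associated list -0.12. These percentages rest on the same sums in each area, so they are given as a description with no test.

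Margin spots also differed among themselves. In Vehicle 2+3 the neuronal list ran from 313 to 8006 CPM over 71 margin spots, with a median of 1903, and the interior spots ran from 103 to 1569 with a median of 598. In TREAT 1+4 the neuronal list ran from 711 to 2752 CPM over 35 margin spots with a median of 1043, which lay close to the interior median of 1020. Margin spots that faced more tissue carried more of the brain cell lists. Homeostatic astrocyte genes summed to 1769, 2092, 1989 and 1670 CPM in margin spots with 2 neighbours outside the tumour and to 3171, 3475, 2778 and 2943 CPM in those with 3 or 4. Myelin genes did the same, at 3442, 4290, 5654 and 6431 CPM against 4640, 5750, 9994 and 13404 CPM. In both lists all 4 areas had the higher sum in spots that faced more tissue, and since both the number of neighbours and the split come from the rule, no test is given. The proliferation sum that chose the spots went the other way, at 2585, 2314, 2477 and 2413 CPM against 2288, 2069, 2140 and 1999 CPM.

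Myeloid genes of resident cells were higher in the margin than in the interior and lower than in the ring, with exceptions among genes of infiltrating cells. All 11 homeostatic microglia genes rose over the interior (median 1.43). Cx3cr1, the fractalkine receptor, stood at 91.6, 80.5, 94.0 and 72.6 CPM against 29.2, 21.8, 25.6 and 11.8 in the interior (2.02 ± 0.18). Sall1, a transcription factor of microglia, rose by 3.13 ± 0.33. The margin of both was above the interior in every area. Of 14 disease-associated microglia genes 9 rose and 2 fell (median 0.76), led by the lipid receptor Trem2 (1.66 ± 0.16), the cystatin Cst7 (1.69 ± 0.18), the lipid carrier Apoe (1.62 ± 0.18) and Gpnmb (1.41 ± 0.16). The 2 that fell were the secreted phosphoprotein Spp1 and the galectin Lgals3, and neither fell with library totals or DESeq2. Of 13 complement genes 8 rose and 1 fell (median 0.77), with C4b at 1.89 ± 0.17, C3 at 1.82 ± 0.17 and C1qa at 1.13 ± 0.17, and C2 fell by 0.92 ± 0.18. Of 12 genes of infiltrating and border macrophages 6 rose and 1, Mrc1, fell. Beside these lists, 17.7% of all genes tested rose and 32.0% fell.

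Collagens and other lesion matrix genes were higher in the margin than deeper in. Of 20 tested 13 rose over the interior and none fell (median 0.89), and edgeR called none lower with library totals and DESeq2 called none lower either. The matrix glycoprotein tenascin-C, Tnc, stood at 54.5, 63.3, 100 and 63.9 CPM against 21.5, 19.4, 25.3 and 13.9 in the interior (1.85 ± 0.18), with no overlap. The fibrillar collagen Col1a2 stood at 259.5, 141, 292 and 26.8 CPM against 43.9, 44.6, 87.0 and 11.3 (1.84 ± 0.17). Margin and interior of Col1a2 overlapped between areas, with TREAT 2+3 low in both, but the margin was higher within each area. Decorin, Dcn, behaved alike at 52.3, 27.1, 47.0 and 6.53 CPM against 4.81, 2.14, 8.15 and 1.58 (2.98 ± 0.28). Among 19 matrix proteases 7 rose and 3 fell, and among 7 hyaluronan genes 2 rose and 3 fell. Of 13 endothelial genes 3 rose, the transporter Slco1a4 (3.04 ± 0.29), Vwf (0.97 ± 0.18) and the tight junction gene Cldn5 (0.78 ± 0.17). That is near the share of all genes, of which 17.7% rose and 32.0% fell. The medians of the protease, hyaluronan and endothelial lists were 0.12, -0.40 and 0.15, against -0.25 over all genes tested.

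Genes of growth and of the integrated stress response were lower in the margin than in the interior. The integrated stress response is the program that Atf4 drives when amino acids run short or misfolded protein slows translation. Of 12 such genes 9 fell and none rose (median -0.96), and with library totals 8 fell and 1 rose. Among all genes tested 32.0% fell and 17.7% rose, with a median of -0.25. Trib3, on chromosome 2 at 152337425 to 152344060, is a pseudokinase induced by Atf4. It stood at 30.5, 57.0, 77.8 and 56.6 CPM in the margin, at 244, 213, 183 and 126 CPM in the interior and at 4.22, 24, 21.2 and 21.2 CPM in the ring. The 3 zones did not overlap, and the difference from the interior was -1.67 ± 0.19 (adjusted p = 1.28e-14). Asparagine synthetase, Asns, stood at 85.0, 157, 106 and 144 CPM against 326, 396, 290.1 and 311 (-1.42 ± 0.17), the glutathione-degrading enzyme Chac1 fell by 1.56 ± 0.21 and the stress sensor Sesn2 by 1.31 ± 0.18. Atf4 itself stood at 314, 358, 365 and 380 CPM against 1122, 929, 567 and 526 (-1.06 ± 0.18). The gap was wider in the Vehicle areas, and that difference is given with the other tests of TREAT below.

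The summed stress response list was lower in the margin than in every band further in. In Vehicle it held 1330 and 1514 CPM in the margin, 2241 and 2204 CPM 2 to 3 steps in, 2712 and 2508 CPM 4 to 6 steps in and 2829 and 2559 CPM 7 or more steps in. In TREAT it held 1417 and 1487 CPM in the margin, 1910 and 1859 CPM 2 to 3 steps in, 1951 and 2164 CPM 4 to 6 steps in and 1802 and 1939 CPM 7 or more steps in. The highest of these bands was the deepest in both Vehicle areas and that 4 to 6 steps in in both TREAT areas, and the difference was not tested.

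Other genes with small p among those that fell have varied roles. Padi4, which converts arginine to citrulline in histones, stood at 67.6, 39.8, 35.9 and 47.2 CPM against 192, 191, 211 and 144 in the interior (-1.99 ± 0.19, adjusted p = 4.74e-19). Atg9b, a lipid scramblase of autophagy, fell by 1.66 ± 0.18, the galectin Lgals7 by 1.62 ± 0.18, the stress cytokine Gdf15 by 1.58 ± 0.20 and the checkpoint ligand Cd276 by 1.59 ± 0.20. The channel Trpv4 and the acetylcholine receptor subunit Chrnb1 both fell by 1.44 ± 0.19. In each of these genes all 4 areas had the margin below the interior. Mcpt1, a mast cell protease (-2.16 ± 0.24), Glrp1 (-1.97 ± 0.24) and 1700001O22Rik (-1.61 ± 0.20) completed the 12 with the smallest p.

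Growth genes that the rule did not use moved with those it did. Of 22 other cell cycle genes 20 fell and none rose (median -0.80), such as the mitotic kinesin Kif20a (-0.96 ± 0.18) and the replication helicase subunit Mcm6 (-0.91 ± 0.17). With library totals 15 fell. These genes vary with the 21 that chose the spots, so their lower level in the margin follows in part from the choice and supports nothing. Of 13 genes of Myc and ribosome assembly 12 fell and none rose (median -0.83), and 11 fell with library totals. The share of all genes that fell was 32.0%, with a median of -0.25. Myc stood at 168, 144, 136 and 116 CPM against 441.5, 322, 194.5 and 194 (-0.94 ± 0.17), and nucleolin, Ncl, at 737, 785, 767 and 916 CPM against 1590, 1429, 1309 and 1373 (-0.83 ± 0.17). Every interior value of both exceeded every margin value. How far the lower level of the Myc and ribosome assembly genes follows from the choice of spots was not tested. A fit of spots of 1500 to 3000 CPM of the rule genes only narrows the difference in proliferation. It called 5865 of 12072 genes tested, against 6853 of 13776 in the main fit.

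Interferon-induced genes were lower in the margin than in the interior and higher than in the ring. Of 18 tested 13 fell against the interior and none rose (median -0.55), and with library totals 10 fell and 2 rose. Among all genes tested 32.0% fell and 17.7% rose, with a median of -0.25. Bst2, which tethers budding virus, stood at 1660, 1703, 2154 and 2088 CPM against 3777, 3426, 3360 and 3011 (-0.84 ± 0.17), and Rsad2, an antiviral radical enzyme, at 242, 156.5, 216 and 169 CPM against 456, 387, 420.5 and 431.5 (-1.14 ± 0.17). Neither gene overlapped between margin and interior. Of 16 antigen presentation genes 6 fell, a share near that of all genes, and 1 rose. The 6 were the peptide transporter and proteasome genes Tap1, Tap2, Tapbp, Psmb8 and Psmb9 and their regulator Nlrc5. The median of that list changes sign with the scaling, at -0.25 with TMM and 0.06 with library totals, where 6 rose and 5 fell, so no direction is given for it. Of 16 mesenchymal glioma genes 8 fell and 2 rose (median -0.38), and with library totals 5 fell and 3 rose. Tnc was among the 2 that rose.

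The second comparison set the margin against the ring that it touches. The ring fell below 1500 CPM of the proliferation genes by the rule, so genes that follow the share of tumour cells differ here by the choice. Of 11455 genes tested, 2802 were higher in the margin (24.5%) and 2597 were lower (22.7%), and DESeq2 called 1470 higher and 1925 lower. With each spot thinned to 2000 UMIs the calls numbered 897 against 5399. All 14 homeostatic astrocyte genes, all 13 myelin genes, 14 of 15 neuronal, 15 of 16 synapse and 10 of 11 homeostatic microglia genes were lower than in the ring. All 13 genes of Myc and ribosome assembly, 15 of 18 interferon-induced, 14 of 16 antigen presentation and 14 of 16 mesenchymal glioma genes were higher, with none of these lists lower. Cd44, the hyaluronan receptor, for example, stood at 443, 336, 377 and 328 CPM in the margin and at 268, 246, 273 and 212.5 CPM in the ring (0.56 ± 0.09, adjusted p = 2.27e-05), with no overlap.

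Most genes that passed both comparisons lay between the 2 neighbouring zones. Of 11376 genes tested in both, 3910 had the margin between interior and ring with both tests passed. Of these, 1653 rose outward, as Gfap and Cldn11 did, and 2257 fell outward, as Trib3 and Ncl did. Only 24 genes were higher in the margin than in both (0.211%), and 35 were lower than in both.

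**Figure D3:**
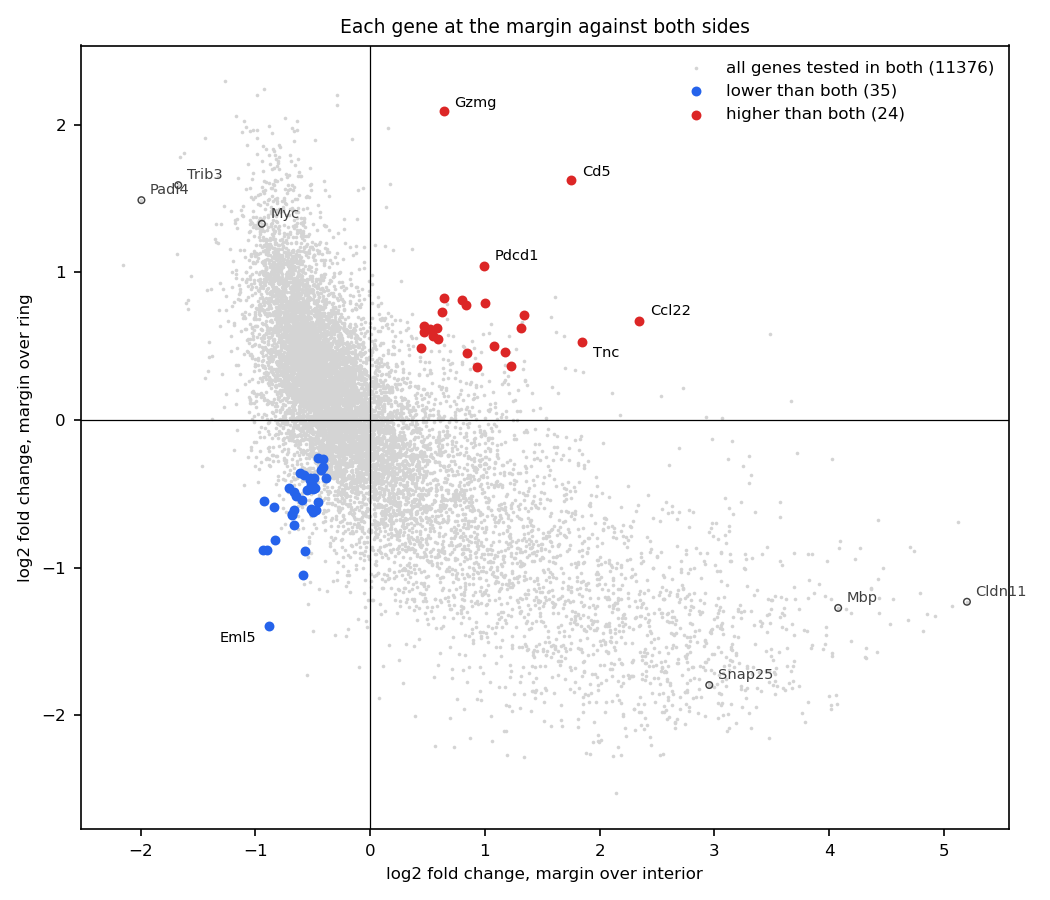
Log2 difference of the margin from the interior (horizontal axis) against its log2 difference from the ring (vertical axis), 1 point per gene tested in both. Genes of brain cells lie at lower right and genes of growth at upper left, while the 24 genes higher than both zones (red) lie at upper right and the 35 lower than both (blue) at lower left.

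Of the 24 genes with their highest level at the margin 14 were in none of the lists. The T and NK cell, macrophage, chemokine and mesenchymal glioma lists held 2 each. The collagen and matrix list held 3 and the dendritic cell list 1, and a gene can stand in more than 1 list. By their known roles the 24 include the T cell genes Cd5, Cd3e, Cd3g and Trbc1, the inhibitory receptor Pdcd1, the interleukin receptor Il2ra, and the chemokines Ccl5, Ccl22 and Cxcl16. Myeloid genes are Fgr, a kinase of phagocytes, the inhibitory receptor Pirb, the monocyte marker Ly6c2 and Plac8. The matrix is represented by fibronectin, Fn1, tenascin-C, Tnc, and thrombospondin-1, Thbs1. Further members are Lsp1, an actin-binding protein of leukocytes, the survival genes Birc3 and Bcl2a1a, the granzyme Gzmg, the guanylate-binding Gbp10 and F830016B08Rik. The group was found by the same 2 tests that describe it, so sums over it are a description only.

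Cd5, a T cell surface receptor on chromosome 19 at 10718107 to 10739026, had the highest contrast to both sides among the T cell genes. It stood at 24, 10.9, 10.3 and 11.6 CPM in the margin, at 4.23, 4.28, 2.99 and 4.01 CPM in the interior and at 6.32, 5.99, 3.54 and 1.76 CPM in the ring. All 4 margin values exceeded all 8 others, although they rest on 11, 12, 12 and 16 counted molecules. The difference was 1.75 ± 0.34 from the interior (adjusted p = 5.61e-06) and 1.62 ± 0.41 from the ring (adjusted p = 0.0019). Pdcd1, which encodes the checkpoint receptor PD-1, stood at 32.7, 28.9, 23.9 and 17.4 CPM in the margin, at 15.2, 10.9, 12.3 and 12.3 CPM in the interior and at 16.9, 15.0, 8.85 and 9.70 CPM in the ring. It too had every margin value above every other value, with 15, 32, 28 and 24 molecules behind them (0.99 ± 0.23 and 1.04 ± 0.26). Cd3e, a chain of the T cell receptor complex, stood at 69.8, 38.0, 63.3 and 29.8 CPM against 22.9, 16.5, 25.8 and 18.9 in the interior and 37.9, 36.9, 39.8 and 23.8 in the ring (1.18 ± 0.19 and 0.46 ± 0.18). Each area had Cd3e highest in its margin, but the margins of Vehicle 2+3 and TREAT 2+3 overlapped the rings of other areas.

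The chemokines showed 2 patterns. Ccl22, a chemokine of dendritic cells and macrophages that attracts cells with Ccr4, stood at 24, 34.4, 30.8 and 25.4 CPM in the margin and at 3.73, 6.88, 4.82 and 6.67 CPM in the interior (2.35 ± 0.26), with 27.4, 20, 12.4 and 18.5 CPM in the ring (0.67 ± 0.24). In Vehicle 1+4 its ring was above its margin. Ccl5, made by T cells and macrophages, stood at 314, 190, 280 and 172 CPM, against 140, 121, 117 and 111 in the interior and 223, 160, 231 and 125 in the ring (0.93 ± 0.16 and 0.36 ± 0.10). Cxcl16 was highest in the margin of each area at 148, 129, 132 and 79.1 CPM, with a difference of 0.47 ± 0.16 from the interior and 0.64 ± 0.13 from the ring. The chemokine list as a whole had 8 of 14 members above the interior and 5 of 12 above the ring. Cxcl10 was below the interior with TMM scaling only, and 3 members were below the ring. Among all genes tested 17.7% were above the interior, 24.5% above the ring and 22.7% below the ring. The share of the list below the ring was thus near that of all genes.

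Among the matrix genes Fn1 was the most even. It stood at 318, 303, 361 and 259 CPM in the margin, at 250.5, 256.5, 171 and 195 CPM in the interior and at 183, 219, 243 and 160.5 CPM in the ring. The margin mean of 310 ± 42.0 CPM (SD, n = 4) exceeded the interior by 0.52 ± 0.17 and the ring by 0.62 ± 0.10 (adjusted p = 9.96e-06), and the lowest margin value was above all 8 others. Tnc at 54.5, 63.3, 100 and 63.9 CPM exceeded its rings of 42.2, 47.9, 67.2 and 40.6 CPM by 0.53 ± 0.15. Thbs1 stood at 205, 134, 55.6 and 120 CPM, with TREAT 1+4 below its own ring of 69.9 CPM. Fn1 and Tnc were above both zones in at least 7 of the 8 tissue pieces, as were Fgr, Il2ra, Cxcl16 and F830016B08Rik.

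**Figure D4:**
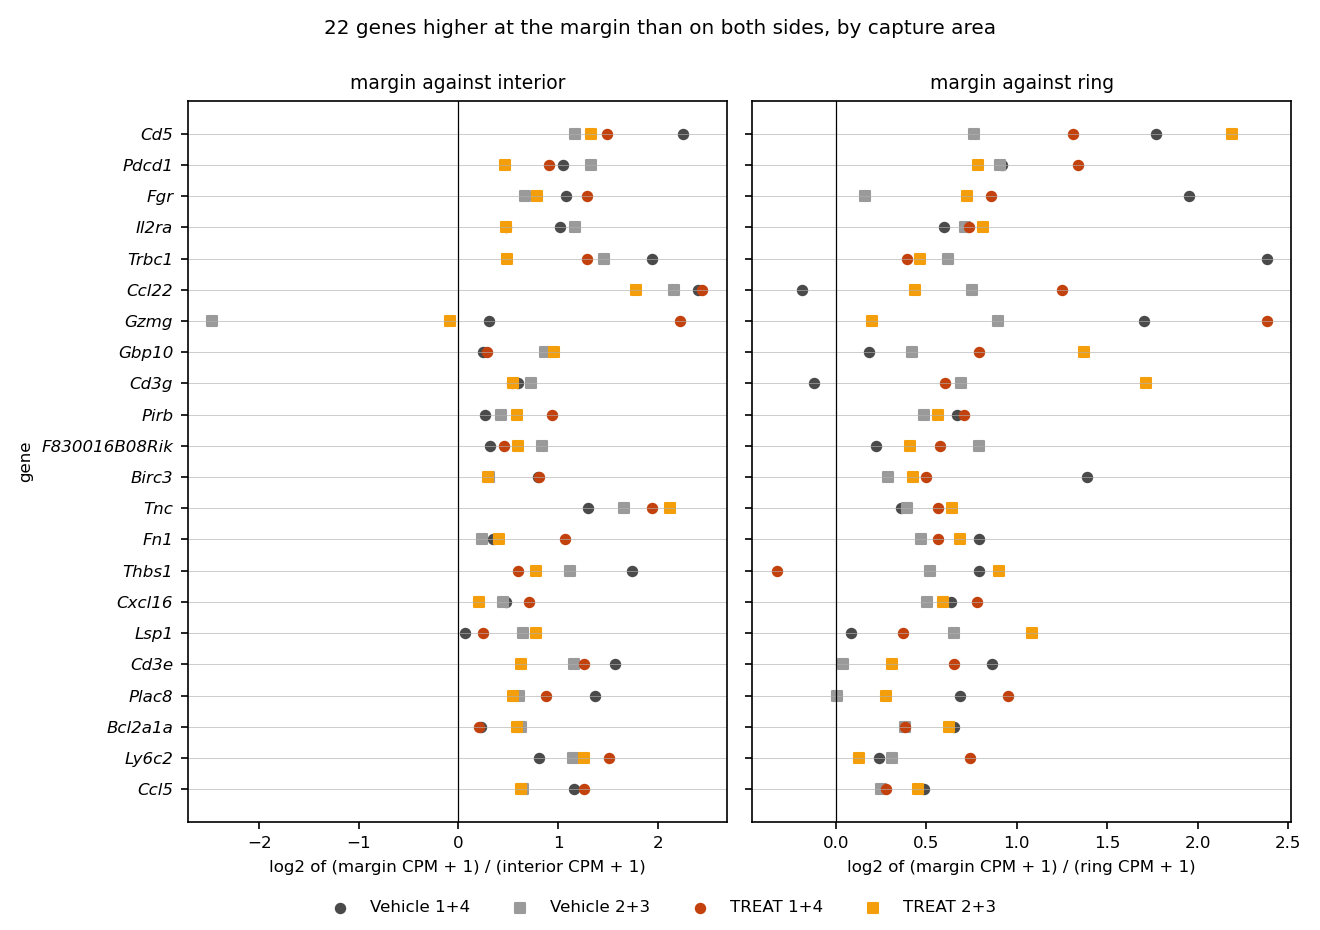
Of the 24 genes higher in the margin than in both neighbouring zones, 22 (rows), with the log2 ratio of margin to interior (left) and of margin to ring (right), from TMM-scaled CPM plus 1, and 1 point per capture area. Points right of the line at 0 have the margin higher: 21 of these genes have all 4 areas there against the interior and 19 against the ring, and Gzmg lies left of it in Vehicle 2+3 and TREAT 2+3 against the interior.

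Single areas carried some of these genes. Gzmg, a granzyme of cytotoxic cells, stood at 98.1, 2.71, 124 and 2.18 CPM in the margin, so its 2 high areas were 1 Vehicle and 1 TREAT area. It was above the interior in only 2 areas. Without TREAT 1+4 the sign turned, with the margin 0.14 below the interior on the log2 scale, against 0.64 above it with all 4. Of the 24 genes, 19 had the margin above both neighbours in all 4 areas. Gzmg, Gbp10, Pirb, Bcl2a1a, Ly6c2 and Trbc1 belong to families of near-identical copies, so their probes may read more than 1 gene.

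The group of 24 depended on how the tumour was bounded. With library totals 52 genes were higher than both, 20 of the 24 among them, and with DESeq2 13 were, 6 of the 24 among them. The 6 genes called under all 3 were Cd5, Pdcd1, Gbp10, Fn1, Cxcl16 and Lsp1. With 2000 CPM as the tumour threshold 5 genes passed and none of the 24 was among them, and with 1000 CPM 77 passed and 18 were. At 2000 CPM, margin spots of the 1500 CPM rule fall into the ring, and Cd5 then stood below it by 0.22 on the log2 scale. With spots thinned to 2000 UMIs 2 genes passed, both of them among the 24.

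T and NK cell genes summed to their highest level at the margin in each area. Their 15 genes held 331, 255, 211 and 135 CPM in the ring, 455, 261, 310 and 218 CPM in the margin and 215, 146, 211 and 163 CPM 2 to 3 steps in. Spots 2 to 3 steps outside held only 82.5, 54.5, 70.8 and 53.5 CPM. In Vehicle 2+3 the margin and the ring were nearly level. The list includes Cd3e and Cd3g, which are among the genes picked above as highest at the margin, so its sum is a description only. The sum without Cd3e and Cd3g was not taken, so a peak of the remaining genes at the margin is not shown. Of 13 genes of the list tested against the interior 6 rose and none fell (median 0.61), and DESeq2 called the same number. The leading ones were Cd3e, Cd3d (1.17 ± 0.21), Trac (0.99 ± 0.21) and the cytotoxic granule gene Nkg7 (1.09 ± 0.27). Against the ring 4 of 8 were higher, Cd3e, Cd3g, Lck and Gzmb, while DESeq2 called none of them. Among all genes tested 17.7% were higher than in the interior and 24.5% higher than in the ring. The genes of cytotoxic cells Cd8a, Cd8b1, Klrk1, Prf1, Gzmb and Ifng, named here to complete the list, did not pass against the interior, nor did Lck. Spots varied widely, from 0 to 1262 CPM over 34 margin spots of Vehicle 1+4 with a median of 388, against an interior median of 161. The left and right pieces held 196 and 504, 280 and 122, 291 and 331, and 108 and 306 CPM, so no side was high throughout. The margin of a piece was above both its interior and its ring in 6 of 8 pieces. In the right piece of Vehicle 2+3 it lay below the interior (159 CPM) and the ring (167 CPM), and in the left piece of TREAT 2+3 below the interior (127 CPM).

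Of the other immune cell lists, that of infiltrating and border macrophages also summed highest at the margin in all 4 areas. For the counts that follow, 17.7% of all genes tested were higher in the margin than in the interior. B and plasma cell genes were higher than in the interior in 5 of 7 cases, with the IgM heavy chain Ighm at 137, 222, 67.5 and 51.5 CPM against 12.2, 9.25, 13.6 and 10.2 (3.25 ± 0.20) and the joining chain Jchain at 2.60 ± 0.25. Their sum was highest in the ring in 3 areas and further out in TREAT 2+3. Dendritic cell genes rose in 4 of 7 cases, led by Ccl22, Irf8 (1.28 ± 0.17) and the homing receptor Ccr7 (1.70 ± 0.23). Their sum in the margin was 975, 997, 843 and 775 CPM, against 1026, 978, 798 and 794 CPM in the ring, with the order differing between areas. Infiltrating and border macrophage genes summed to 884, 893, 1173 and 668 CPM in the margin against 693, 737, 937.5 and 563 CPM in the ring. That list includes Fn1 and Ly6c2, which belong to the 24 genes above, so its sum is a description only. After TMM scaling Fn1 alone stood at 318, 303, 361 and 259 CPM in the margin. In the ring it stood at 183, 219, 243 and 160.5 CPM. The sum without Fn1 was not taken, so a peak of the remaining macrophage genes at the margin is not shown. Homeostatic microglia genes instead peaked outside the margin in every area.

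The 35 genes lower in the margin than in both neighbours had no common cell type among the lists. Eml5, a microtubule-associated protein, stood at 13.1, 10.9, 12 and 18.1 CPM in the margin, at 23.3, 21.3, 27.6 and 27.4 CPM in the interior and at 29.5, 25.0, 35.4 and 50.3 CPM in the ring. All 4 margin values were below all 8 others (-0.88 ± 0.24 and -1.40 ± 0.23). Rbfox2, a splicing regulator, stood at 80.7, 83.2, 82.9 and 96.5 CPM in the margin, and Got1, the cytosolic aspartate aminotransferase, at 133, 268, 182 and 239 CPM. Eml5, Rbfox2 and Got1 were chosen for display after their values were seen. Of the 35 genes, 29 were below both neighbours in all 4 areas. Library totals called 10 such genes, 8 of the 35 among them, and DESeq2 called 3, all among the 35.

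The third comparison asked whether the margin differed between TREAT and Vehicle. Over 11335 genes, edgeR's quasi-likelihood test called 1 gene higher in TREAT (0.00882%) and 38 lower (0.335%), with 2 areas per group. The lower genes include Sec61b, Shmt2, Itm2b, Nptx1 and the IgM heavy chain gene Ighm. Sec61b, a subunit of the channel through which proteins enter the endoplasmic reticulum, on chromosome 4 at 47474661 to 47483233, stood at 434, 409, 162 and 168 CPM. Both TREAT margins lay below both Vehicle margins, and the difference was -1.35 ± 0.17 (adjusted p = 0.0448). Shmt2, the mitochondrial serine hydroxymethyltransferase, stood at 386, 439, 180.4 and 178.5 CPM (-1.21 ± 0.17), and Itm2b, a membrane protein mutated in familial dementias, at 2083, 2239, 1006 and 890 CPM (-1.19 ± 0.17). In both, the TREAT margins were again below the Vehicle margins.

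Single genes expressed in neurons were among those called. Nptx1, a pentraxin of excitatory synapses, stood at 65.4, 66.9, 10.3 and 18.1 CPM in the margin (-2.19 ± 0.32), and Faim2, a neuronal inhibitor of Fas, at 89.4, 82.3, 12.8 and 23.9 CPM (-2.18 ± 0.31). The kinase inhibitor Camk2n1 stood at 288, 382, 117 and 149 CPM (-1.34 ± 0.21), and Bex2 at 222, 232, 74.4 and 104.5 CPM (-1.34 ± 0.21). The growth-cone protein Basp1 fell by 1.14 ± 0.17, the ubiquitin ligase Trim8 by 1.22 ± 0.18 and Tnfaip2, induced by tumour necrosis factor, by 1.43 ± 0.22. Ighm fell by 1.64 ± 0.26. All of these had an adjusted p of 0.0448. Over the 38 genes the fold ranged from 1.92 to 4.57, and the others include the actin gene Actb, the glucose transporter Slc2a1, the galectin Lgals7, the nerve growth factor receptor Ngfr and the small GTPase Rhob.

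Most of the 38 genes were ordered alike in the neighbouring zones. Of the 38 genes, all 38 had both TREAT areas below both Vehicle areas in the ring too, and 35 of 38 in the interior. The share of all genes with that order was not counted, so these counts are a description only. Nptx1 in the ring stood at 236, 165, 34.5 and 110.2 CPM and Faim2 at 244.5, 222, 56.6 and 101 CPM. The neuronal list in the ring summed to 3756, 3668, 2126 and 4143 CPM of the library totals and the myelin list to 9271, 9594, 21716 and 19155 CPM. In the margin of TREAT 1+4 the choroid plexus and ependyma list summed to 10136 CPM against 536, 336 and 418 CPM in the other three, with Ttr, the transthyretin of choroid plexus, at 8145 CPM against 231, 120.3 and 144 CPM. The endothelium list summed to 1222, 1017, 520.5 and 701.5 CPM in the margin. The part that neighbouring tissue, endothelium and spot depth play in the differences was not tested.

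**Figure D5:**
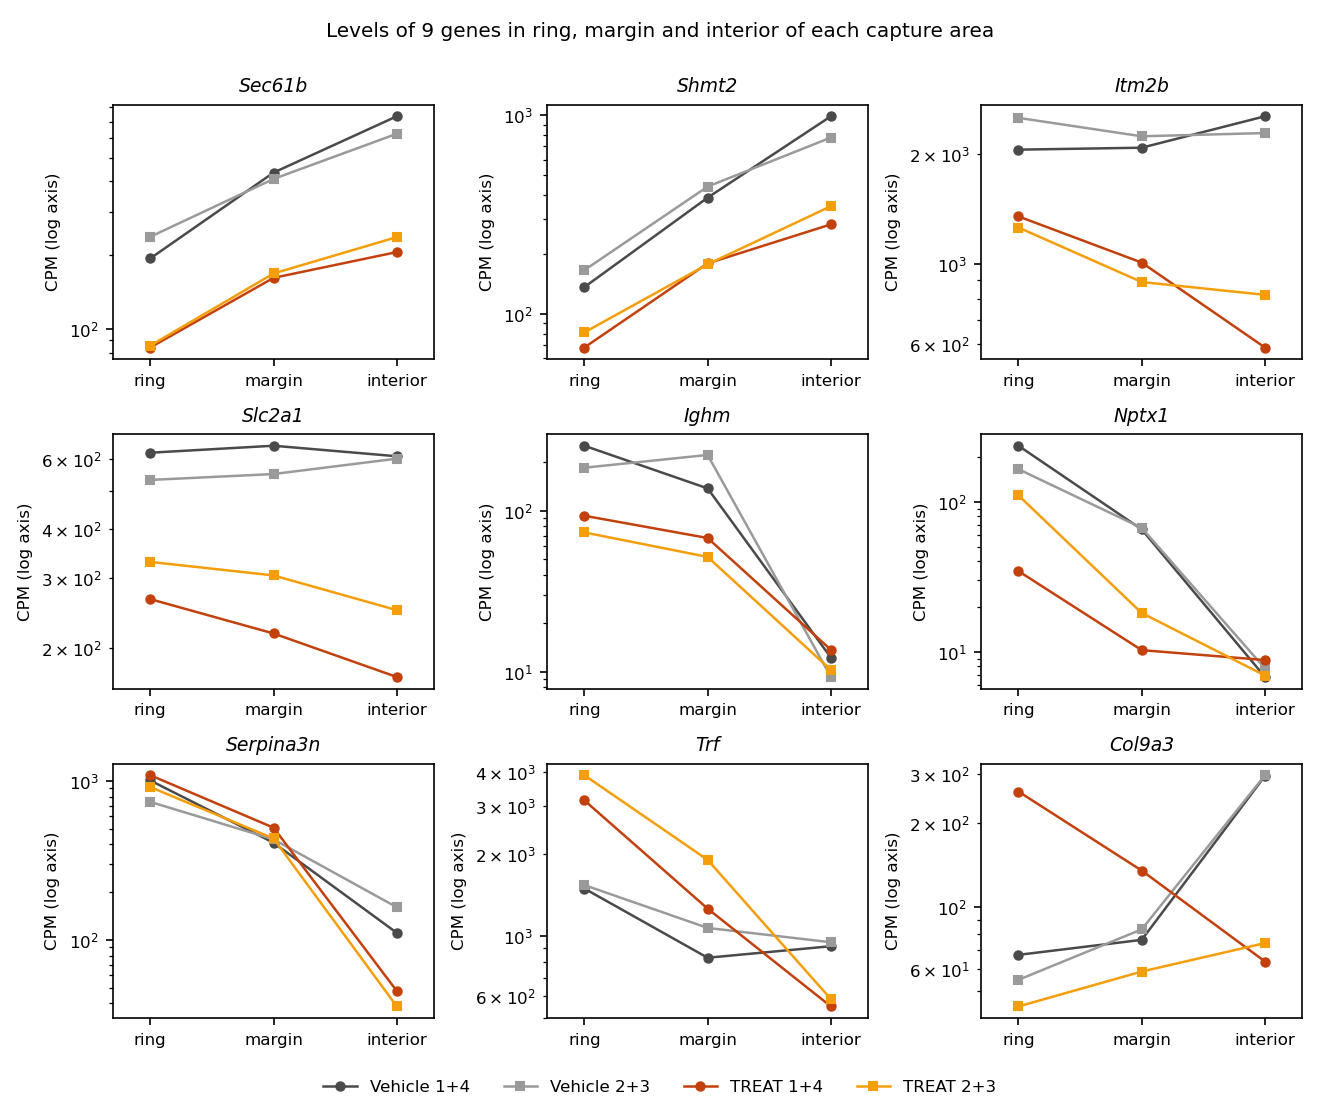
Levels in TMM-scaled CPM (log axis) in ring, margin and interior, with 1 line per capture area, of 6 genes lower in the TREAT margin (Sec61b, Shmt2, Itm2b, Slc2a1, Ighm, Nptx1) and of 3 genes whose step from interior to margin differed between the groups (Serpina3n, Trf, Col9a3). For Sec61b, Shmt2, Itm2b and Slc2a1 the TREAT points lie below the Vehicle points in all 3 zones, and for Ighm and Nptx1 only in the margin and ring.

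In the other direction the only call was Spty2d1, a histone chaperone, at 21.8, 19.0, 56.4 and 65.3 CPM (1.61 ± 0.29, adjusted p = 0.0458). The next smallest p-values belonged to genes that did not pass. Sec11c, a signal peptidase subunit, stood at 314, 469, 840 and 862 CPM (1.10 ± 0.20, adjusted p = 0.0539), and Igfbpl1 at 2.18, 9.05, 81.2 and 34.1 CPM (3.03 ± 0.56). The oligodendrocyte gene Ermn (2.12 ± 0.41), the anion exchanger Slc4a2 (0.85 ± 0.17) and myelin basic protein, Mbp, at 1234, 1323, 2169 and 2406 CPM (0.84 ± 0.17) followed with adjusted p of 0.0675 to 0.0691. In each of these the TREAT margins lay above the Vehicle margins.

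Few list genes were called in this comparison, where 0.00882% of all genes were higher and 0.335% lower. At that share a list of this size would hold few calls or none, so the counts below say little about the lists. Neuronal genes had a median of -0.88 with none of 15 called, synapse genes -0.89 with none of 16, and myelin genes 0.80 with none of 13, against -0.01 over all genes tested. For myelin, library totals called 3 genes higher and DESeq2 4, and for neurons both called none. Neither interferon-induced (18 tested), antigen presentation (16), T and NK cell (10), disease-associated microglia (14), collagen and matrix (18) nor Myc and ribosome assembly (13) had a gene past the threshold with edgeR. The calls among the lists were Ighm, Slc2a1, which stands in both the endothelial and the hypoxia list, and no other. A call that misses the threshold with 2 areas per group does not show that the margins are alike.

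The number of calls rested on the areas and on the bounds of the tumour. With 1 area left out it was 125 without Vehicle 1+4, 35 without Vehicle 2+3, 363 without TREAT 1+4 and 462 without TREAT 2+3, where the remaining area of a group is taken to vary like the others. No gene was called with the threshold at 1000 CPM, and 414 were at 2000 CPM, 37 of the 39 among them. Library totals gave 23 higher and 77 lower, all 39 among them, and DESeq2 17 higher and 86 lower, 32 of the 39 among them.

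The last comparison asked whether the step from interior to margin itself differed between TREAT and Vehicle. Over 13776 genes, the interaction term was called higher in TREAT for 101 (0.733%) and lower for 25 (0.181%). Its median over all genes was 0.30 with TMM, -0.07 with library totals and 0.02 with DESeq2, and library totals called 7 higher and 12 lower. With so large a shift only the genes called under all 3 scalings are described, 16 in all. Serpina3n, an acute-phase protease inhibitor of reactive astrocytes, stood at 410, 431, 509.5 and 436 CPM in the margin and at 111, 161, 47.9 and 38.3 CPM in the interior. The 4 margins lay close together and the 2 TREAT interiors lay below both Vehicle interiors. The step was steeper in TREAT by 1.83 ± 0.21 (adjusted p = 1.08e-07).

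The step also differed upward for a pair of cartilage-type collagen genes. Col9a3 stood at 76.3, 83.2, 135 and 58.8 CPM in the margin and at 295, 296.5, 63.8 and 74.3 CPM in the interior, a difference of 2.28 ± 0.28, and Col9a2 differed by 1.46 ± 0.24. The iron carrier Trf, made by oligodendrocytes, stood at 831, 1069, 1258 and 1901 CPM in the margin and at 916, 947, 550.2 and 585 CPM in the interior (1.43 ± 0.21). Tmem88b (1.80 ± 0.26), Col9a2 and Trf had both TREAT interiors below both Vehicle interiors, while the zinc finger gene Plagl1 (1.49 ± 0.22) did not, at 848, 668, 289.5 and 723 CPM. In the other direction, Ighm rose from interior to margin more in Vehicle (-1.81 ± 0.30), as did the synaptic genes Nptx1 (-2.27 ± 0.44) and Syt9 (-2.63 ± 0.52), the neuronal repressor Scrt1 (-1.92 ± 0.38) and Tmem59l (-2.59 ± 0.54). The other 5 called under all 3 scalings were Apod, 6330403K07Rik, Nsg2, Ndn and Nap1l5. For Atf4 and the other stress response genes the difference passed for 3 of 12 with TMM and for none with library totals or DESeq2. Without Vehicle 1+4 the calls dropped from 126 to 33 and without TREAT 1+4 to 45, while without Vehicle 2+3 there were 355.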

How the data were processed

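Per the labels' protocols, probe pairs were hybridised to RNA in formalin-fixed sections, ligated and sequenced. The authors deposited raw UMI counts per feature and spot, with Space Ranger 2.1.1, the mm10 build and R 4.4.1 named in the submitters' processing notes. Of 32589 features, 304 marked as deprecated were left out. Counts were summed per capture area and zone and fitted with edgeR 4.0.16 (R 4.3.3) by quasi-likelihood F-tests, after TMM scaling over the 12 sums and filterByExpr, with Benjamini-Hochberg adjustment at 0.05. The area was a block in comparisons of zones. The 21 rule genes stayed in the fits and were only described. The scripts were tested on simulated data. Alternatives were DESeq2 1.42.0, library totals, other filters, thresholds and patch sizes, thinned spots and leaving out each area.

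Named genes had a mean of at least 10 CPM, were called and, for interior and TREAT, moved one way in every area. They were ranked by p, with 12 taken per direction (6 for the interaction), except that genes above both neighbours were ranked by the smaller of their 2 fold changes. A described list gave at most 4 names, ranked by p. Other genes were named after their values were seen, to complete a short count or show an exception. A few named genes are not reported here, though counts and lists include them. The members and lists were chosen with earlier results of these data known. Precision rests on 424810 to 1280812 UMIs per margin.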

Additional observations from a re-analysis of the deposited data

Results flagged for a closer look

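For 12 genes the step from interior to margin differed between TREAT and Vehicle by edgeR's test of the interaction (log2, Benjamini-Hochberg adjusted). It was higher in TREAT for Serpina3n (1.83), Col9a3 (2.28), Tmem88b (1.80), Trf (1.43), Plagl1 (1.49) and Col9a2 (1.46). It was lower in TREAT for Ighm (-1.81), Nptx1 (-2.27), Syt9 (-2.63), Scrt1 (-1.92), Tmem59l (-2.59) and Ighg2c (-2.06). The first 11 passed with library totals and with DESeq2 too, and Ighg2c did not. Ighg2c stood at 4.36, 82.3, 141 and 2.18 CPM in the 4 margins, so 1 area of each group was high, and it belongs to a family of similar genes that probes may not tell apart.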

How the results depend on the processing

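Against the interior the 6853 calls became 4084 at a threshold of 2000 CPM, 2491 with thinned spots and 4549 without the area as a block, and 4346 (without Vehicle 2+3) to 5840 with 1 area left out. Against the ring the 5399 calls became 3395 with DESeq2 and 897 with thinned spots. The 24 genes higher than both became 13 with DESeq2, 52 with library totals, 77 at 1000 CPM, 5 at 2000 CPM and 2 with thinned spots. The 39 TREAT calls in the margin became 103 with DESeq2, 100 with library totals, 522 with no gene filter, 0 at 1000 CPM (1590 genes at an unadjusted p under 0.05 in edgeR), 414 at 2000 CPM, 5 with thinned spots and 13 with patches of at least 50 spots, and 35 (without Vehicle 2+3) to 462 (without TREAT 2+3) with 1 area left out. The 126 interaction calls became 16 with DESeq2, 19 with library totals, 227 with no gene filter, 13 at 1000 CPM, 41 at 2000 CPM, 24 with thinned spots, 16 with patches of at least 50 spots and 261 with margins beside stretches of at least 50 spots, and 33 (without Vehicle 1+4) to 355 (without Vehicle 2+3) with 1 area left out. Thinning left fewer genes to test (6041 of 13776 against the interior), and for the other settings the cause was not tested. Against the ring at 2000 CPM, Cd5 (-0.22), Il2ra (-0.035), Ccl22 (-0.59) and Pirb (-0.074) turned. Gzmg against the interior turned without TREAT 1+4 (-0.14, up to 1.29 without Vehicle 2+3) and with patches of at least 50 spots (-0.10). The interaction of Ighg2c turned without Vehicle 2+3 (0.53) and was -4.4 without TREAT 1+4. With the label number as a replicate block the TREAT comparison gave 241 calls, all 39 among them. The deviations of same-numbered margins correlated at 0.105 over 11355 genes with only 2 pairs, so the numbers were not taken to pair the areas. Depth limits scarce transcripts most: the margin of Vehicle 1+4 holds 424810 UMIs.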

Other observations

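Counts for further lists against the interior are set beside all genes tested, of which 17.7% were higher and 32.0% lower (median -0.25). All 7 choroid plexus and ependyma genes tested were higher in the margin (median 2.67), and the list summed to 34296 CPM in the ring of TREAT 1+4 against 465, 611 and 771 CPM in the other three rings. Of 7 meningeal fibroblast genes 5 were higher and 1 lower (median 2.08). Of 13 hypoxia genes 3 were higher and 3 lower (median 0.013), shares near those of all genes, with Ndrg1, a gene also expressed by oligodendrocytes, at 3.58 ± 0.22 and Vegfa, the vascular growth factor, at -0.61 ± 0.19. Of 15 lysosome and lipid genes 7 were higher and 2 lower (median 0.31). Of 13 endoplasmic reticulum chaperones 5 were lower and none higher (median -0.34), a lower share near that of all genes, and with library totals 5 were lower and 2 higher. Reactive astrocyte genes summed to 8342, 6896, 7922 and 6544 CPM in the margin and to 8952, 7960, 8559 and 8031 CPM in the ring, where the sum was highest in all 4 areas. That sum includes Gfap, whose levels, given above, were far higher in the ring than in the margin. The sum without Gfap was not taken. Against the ring the median of the list was 0.04 and that of all genes tested 0.05, so the peak does not describe the typical member.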
